A study of Mus musculus with 12 samples.

Results

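The lung3 and MYBup libraries are the 2 ends of lung colonising capacity in an RNA-sequencing series of the mouse mammary tumour line 4T1, a line that spreads spontaneously to the lung in mice. They were chosen by their labels, as the 3 lung3 and the 3 MYBup libraries, and make up 6 of the 12 libraries of the series. The lung3 cells were not transfected, had been passaged 3 times through the lung and carry the label high for lung metastatic activity. The MYBup cells were transfected with pcDNA3-mMyb, a plasmid for mouse Myb, were not passaged in mice and carry the label low. The 2 groups used beside them are wt cells, neither transfected nor passaged, and mock cells, transfected with pcDNA3.1 and not passaged; both carry the label normal. All 4 groups share the 4T1 background, with 3 libraries each. The labels do not say whether a line is a pool or a clone, how the plasmid was selected, or whether replicate libraries were grown apart. A p-value therefore speaks of the scatter among these libraries only, part of which may be technical. The lung3 and MYBup cells differ in passage and in plasmid at once, and these cannot be told apart in a comparison of the 2 groups alone.

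4T1 cells are epithelial tumour cells that release chemokines and colony-stimulating factors, and these act on the leukocytes and vessels of a tissue that the cells reach. Chemokines such as Ccl2 recruit monocytes through Ccr2, and Cxcl1 and Cxcl5 recruit neutrophils through Cxcr2. c-Myb, the product of Myb, is a transcription factor known from blood progenitors and from luminal breast epithelium.

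Gene expression was read as counts of reads per gene, and CPM are read counts scaled to a common library size with TMM factors. Total counts lay between 8912989 and 14689339 in lung3, between 12170188 and 18385271 in MYBup libraries, and between 14117503 and 24745660 in the wt and mock libraries. Of 22880 features, 11291 had enough reads to be tested. A gene is called where the adjusted p of edgeR's quasi-likelihood test, Benjamini-Hochberg over the 11291 genes, is under 0.05; every adjusted p below comes from that test, and every log2 fold change is lung3 over MYBup unless another pair is named. Marker genes of the labelled cell type were present, with a summed level of 9 mammary epithelial identity genes between 2663 and 3107 CPM in lung3 and between 2751 and 2851 CPM in MYBup libraries.

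The lung3 and MYBup transcriptomes differed at 5510 of the 11291 tested genes, which is 48.8%, of which 2727 (24.2%) were higher and 2783 (24.6%) lower in lung3. The groups' CPM values did not overlap for 6737 genes (59.7%). The median log2 fold change of all tested genes was 0.000261 and the median of its size was 0.31. A difference of at least 2-fold was called for 1140 genes, 453 higher (4.01%) and 687 lower (6.08%) in lung3. Larger differences leaned the other way, with 97 genes higher and 76 lower by at least 8-fold, and 66 higher and 28 lower by at least 16-fold.

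Other pairs of groups in the same fit give the size of these counts. Between lung3 and wt cells 605 genes (5.36%) were called, between MYBup and mock cells 3038 (26.9%), and between wt and mock cells 4056 (35.9%). Since the untransfected and plasmid lines also differ, a second test asked how far the difference between lung3 and MYBup exceeds the one between wt and mock cells, as (lung3 minus MYBup) minus (wt minus mock) on the log2 scale. This difference of differences was called for 2252 genes (19.9%), 1075 above 0 (9.52%) and 1177 below 0 (10.4%).

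**Figure D1:**
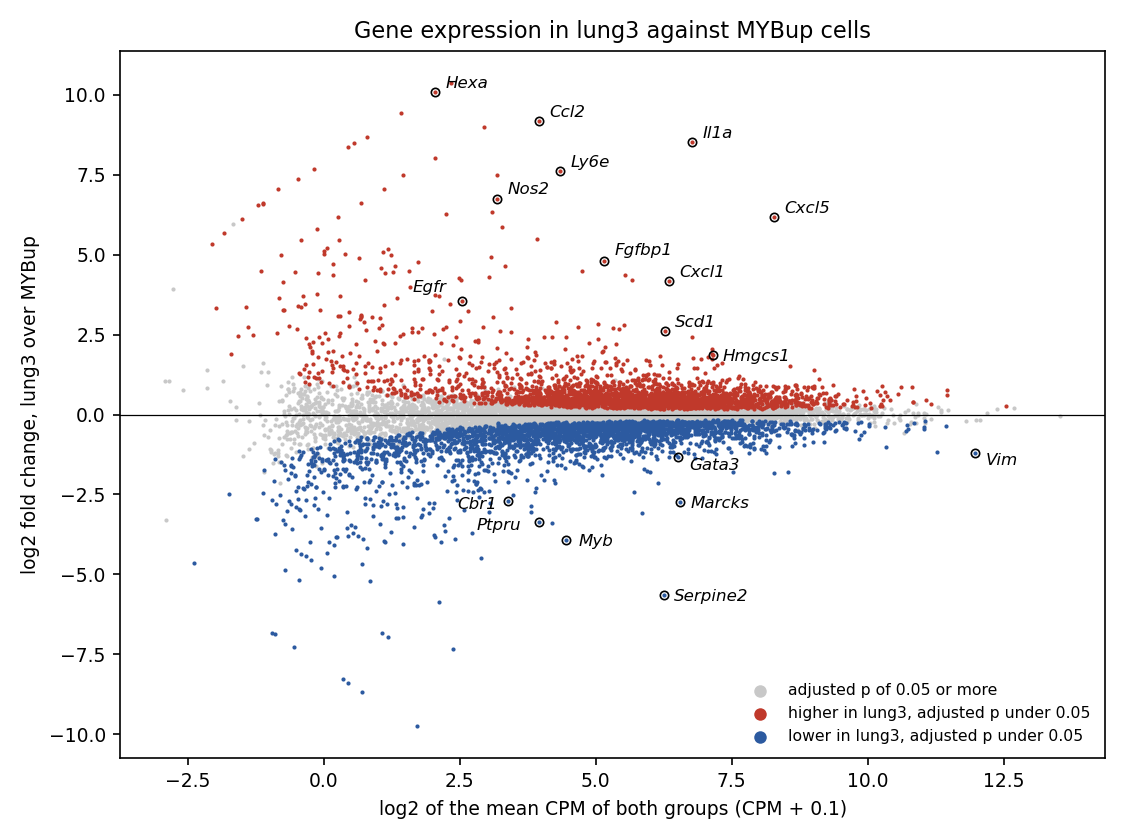
Each point is 1 of the 11291 tested genes, placed by the log2 of its mean CPM in both groups (x axis) and by its log2 fold change of lung3 over MYBup (y axis). Red points are called higher and blue points lower in lung3, grey points are not called, and named genes are circled. The named chemokine and cytokine genes Ccl2, Il1a, Cxcl5 and Cxcl1 lie above 4 on the y axis, and Myb and Serpine2 lie below -3.

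Myb, the gene carried by the plasmid, separated the groups as the labels say. Myb (ENSMUSG00000019982, chromosome 10, 21124935 to 21160984, reverse strand, GRCm38) had 3.13, 2.77 and 2.22 CPM in lung3 libraries, against 39.3, 42.9 and 39.8 CPM in MYBup libraries. The groups did not overlap (log2 fold change -3.91, SE 0.173, adjusted p = 1.82e-08). It had 4.27, 4.96 and 5.75 CPM in wt and 5.17, 4.49 and 6.80 CPM in mock libraries, and the difference of differences was -3.78 (SE 0.239, adjusted p = 9.41e-07). The row cannot separate plasmid transcripts from those of the chromosomal gene, and 559 bases of its exons overlap Gm26577 on the opposite strand. Among 21 tested genes reported elsewhere as c-Myb targets, 7 were higher and 5 lower in lung3 (over all tested genes 24.2% and 24.6%), with a median of 0.067. Gata3, a luminal lineage factor, averaged 51.8 ± 6.20 CPM in lung3 and 131 ± 5.88 CPM in MYBup cells (SD, n = 3 each) and was lower in lung3 (log2 fold change -1.34, SE 0.102, adjusted p = 7.96e-07). Birc3, an inhibitor of apoptosis and also an NF-kB target, was higher in lung3, with a log2 fold change of 1.51.

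Secreted inflammatory genes rose in lung3 over MYBup cells. Of 21 tested chemokine and cytokine genes, 12 rose, 4 fell and 5 were not called, with a median log2 fold change of 1.60; all 12 rose by at least 2-fold. Over all tested genes 24.2% rose and 24.6% fell. Lung3 replicate 3 and mock replicate 3 stood apart from their groups in these genes, with lower levels of Il1a and Cxcl5. Without both, in a fit added after the data were seen, 10 rose and 4 fell of 21. Of 32 genes listed, 11 did not pass the filter. With no filter on low counts, 15 rose and 4 fell of 30. The 12 that rose include ligands for neutrophils, monocytes and lymphocytes and growth factors for granulocytes and macrophages.

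Ccl2, a monocyte chemoattractant, had 46.5, 37.3 and 8.46 CPM in lung3 libraries, against 0.0815, 0.0739 and 0 CPM in MYBup libraries. It summed to 1084 counts in lung3 and 2 counts in MYBup libraries, a depth-scaled ratio of 656 with an exact interval from 181 to 5421 that covers counting error only. Its fitted log2 fold change of 9.18, which depends on the prior count, was 8.49 without MYBup replicate 3. All lung3 libraries lay above all MYBup libraries, and lung3 replicate 3 was the lowest of its group. The wt and mock libraries lay between the groups, with 0.818, 1.03 and 2.16 CPM in wt and 6.21, 7.70 and 1.63 CPM in mock libraries.

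Cxcl5, a neutrophil chemoattractant, had 769.8, 878 and 183 CPM in lung3 libraries, against 9.53, 8.35 and 7.63 CPM in MYBup libraries. The groups did not overlap (log2 fold change 6.17, SE 0.679, adjusted p = 1.26e-05). Cxcl1, which acts on the same receptor, had 193, 189 and 78.5 CPM in lung3 libraries, against 8.07, 7.91 and 9.17 CPM in MYBup libraries (log2 fold change 4.18, SE 0.372, adjusted p = 2.43e-06). In both genes lung3 replicate 3 was again the lowest of its group, and still above every MYBup library.

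Il1a, the alarm cytokine interleukin-1 alpha, had 273, 306 and 74.8 CPM in lung3 libraries, against 0.815, 0.591 and 0.427 CPM in MYBup libraries. Its log2 fold change was 8.51 (SE 0.899, adjusted p = 9.39e-06), and 222 bases of its exons overlap Gm14023 on the opposite strand. Ccl20, a ligand of Ccr6, had 30.6, 13.97 and 5.48 CPM in lung3 libraries, against 0.163, 0.370 and 0.107 CPM in MYBup libraries. Its log2 fold change of 6.31 moved to 5.49 without lung3 replicate 1 and to 6.94 without MYBup replicate 2. Cxcl16, a membrane-bound chemokine for T cells, averaged 88.4 ± 17.9 CPM in lung3 and 4.29 ± 1.04 CPM in MYBup cells (SD, n = 3 each), with a log2 fold change of 4.37; its exons share 552 bases with Zmynd15. Csf3, the granulocyte colony-stimulating factor, averaged 69.2 ± 25.1 CPM in lung3 and 10.48 ± 1.25 CPM in MYBup cells, with a log2 fold change of 2.71.

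Each of these genes also exceeded the difference between wt and mock cells, which had the opposite sign. In wt over mock the log2 fold change was -1.97 for Ccl2, -1.94 for Cxcl5, -1.16 for Il1a and -0.93 for Csf3. It was -0.19 for Cxcl1, -0.04 for Cxcl16 and -0.03 for Ccl20, and only Ccl2, Cxcl5 and Csf3 were called. Lower levels in wt than in mock cells make the difference of differences larger than the direct fold change. The difference of differences was 11.16 (SE 1.35, adjusted p = 0.000151) for Ccl2, 9.67 (SE 1.07, adjusted p = 8.36e-05) for Il1a and 8.11 (SE 0.866, adjusted p = 6.75e-05) for Cxcl5. For Cxcl16 it was 4.42 (SE 0.295, adjusted p = 1.25e-06), for Cxcl1 4.38 (SE 0.489, adjusted p = 8.62e-05) and for Csf3 3.64 (SE 0.455, adjusted p = 0.000173). Over the list, 12 genes were above 0 and 3 below 0 in this test, where 9.52% and 10.4% of all genes were, with a median of 1.73. The list median was 0.65 for lung3 over wt and -1.17 for MYBup over mock cells. These 2 comparisons use the same 12 libraries as the difference of differences and add no independent support. In lung3 against wt, 10 of the 21 genes rose and 1 fell, where 2.91% and 2.44% of all genes did. In MYBup against mock, 4 rose and 11 fell, where 14.3% and 12.6% of all genes did. In wt against mock, 2 rose and 10 fell, where 17.9% and 18% of all genes did.

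The promoters of this list were read for the letters GGANTTTCC, an NF-kB-like motif. Both strands were searched over the 250 bases before each start in RefSeq (GRCm38.p6). Of the 12 genes that rose, 6 have an entry and 2 of those, Cxcl1 and Cxcl10, hold a match. Over all RefSeq promoters 350 of 32851 (1.07%) hold one. The match starts 70 bases before the start in Cxcl1 and 158 before it in Cxcl10, and 100 bases around each are shown with the match in capitals, because both genes rose in lung3. Cxcl10, an interferon-induced ligand of Cxcr3, had 3.06, 1.85 and 3.74 CPM in lung3 libraries, against 1.71, 0.961 and 1.55 CPM in MYBup libraries (log2 fold change 1.07, SE 0.282, adjusted p = 0.00698). A match is a description of the letters and not a measured binding site.
Cxcl1 promoter, chr5:90891130-90891229, + strand: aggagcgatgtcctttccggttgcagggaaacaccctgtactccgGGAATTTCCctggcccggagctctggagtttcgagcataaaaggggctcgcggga
Cxcl10 promoter, chr5:92348993-92349092, - strand: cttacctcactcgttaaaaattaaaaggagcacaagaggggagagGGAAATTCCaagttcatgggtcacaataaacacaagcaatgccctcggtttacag

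The 4 members that fell were Tslp, Clcf1, Il34 and Il18. Tslp, the thymic stromal lymphopoietin, had 14.7, 13.4 and 22.1 CPM in lung3 libraries, against 56.4, 47.8 and 49.1 CPM in MYBup libraries (log2 fold change -1.59, SE 0.177, adjusted p = 1.39e-05). Tslp was higher in MYBup cells than in either control, with 23.3 CPM in wt and 14.3 CPM in mock cells. Il34, a ligand of the macrophage receptor Csf1r, averaged 16.3 ± 1.41 CPM in lung3 and 25.9 ± 3.69 CPM in MYBup cells, with a log2 fold change of -0.66.

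NF-kB response genes rose as a group in lung3 over MYBup cells. NF-kB is the factor that inflammatory signals release from its inhibitors in the cytoplasm, and many of its targets feed back on it. Of 23 tested genes, 20 rose, 1 fell and 2 were not called, where 24.2% of all genes rose and 24.6% fell, with a median of 0.57. Of the 20, 7 rose by at least 2-fold. Without lung3 and mock replicates 3, 19 rose and 1 fell of 23. Zc3h12a, an RNase that degrades cytokine mRNAs, had 39.3, 39.5 and 22.9 CPM in lung3 libraries, against 5.13, 4.21 and 4.32 CPM in MYBup libraries (log2 fold change 2.89, SE 0.396, adjusted p = 7.13e-05). Nfkbiz, a nuclear co-regulator of NF-kB, averaged 54.7 ± 16.8 CPM in lung3 and 10.7 ± 0.475 CPM in MYBup cells (SD, n = 3 each), with a log2 fold change of 2.35. Icam1, an adhesion receptor for leukocyte integrins, had 3.20, 2.54 and 10.7 CPM in lung3 libraries, against 0.326, 0.148 and 0.267 CPM in MYBup libraries. Its log2 fold change of 4.48 was 3.52 without lung3 replicate 3, the library in which it was highest, and its exons overlap Gm47079 on the opposite strand. Ptgs2, the inducible cyclooxygenase, averaged 754 ± 140.3 CPM in lung3 and 285 ± 33.5 CPM in MYBup cells and rose, with a log2 fold change of 1.41. The member that fell was Tnfaip2, with 197 ± 24.6 CPM in lung3 and 275 ± 4.84 CPM in MYBup cells (log2 fold change -0.48). In the difference of differences 14 genes of the list were above 0 and 0 below, where 9.52% and 10.4% of all genes were.

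Acute-phase and innate defence genes followed. Only 8 of 24 listed genes passed the filter, of which 6 rose and 0 fell (24.2% and 24.6% of all genes), with a median of 1.43. The filter keeps a gene that has enough reads in any of the groups. A member near 0 in MYBup cells, such as Nos2, could therefore only be called higher. With no filter on low counts, 8 rose and 0 fell of 22. Without lung3 and mock replicates 3, 7 rose and 0 fell of 9. C3, the central complement protein, had 101.5, 105 and 83.1 CPM in lung3 libraries, against 5.46, 5.32 and 4.96 CPM in MYBup libraries (log2 fold change 4.20, SE 0.567, adjusted p = 6.31e-05). Its levels were 5.95, 7.10 and 25.1 CPM in wt and 75.8, 61.0 and 19.3 CPM in mock libraries, so that the mock cells were closer to lung3 and the wt cells closer to MYBup. Lcn2, an iron-scavenging protein of innate defence, had 40.7, 32.9 and 15.04 CPM in lung3 libraries, against 0.733, 0.813 and 0.480 CPM in MYBup libraries, with a log2 fold change of 5.47. Nos2, the inducible nitric oxide synthase, had 21.5, 20.2 and 11.6 CPM in lung3 libraries, against 0.244, 0 and 0.213 CPM in MYBup libraries, with a log2 fold change of 6.75. Slpi, a secreted inhibitor of leukocyte proteases, averaged 33.1 ± 3.17 CPM in lung3 and 10.8 ± 1.11 CPM in MYBup cells, with a log2 fold change of 1.62.

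Markers of host cell types were read as lists, whichever cells their transcripts came from. Of 14 host leukocyte markers, Ly6g, Lyz2, Cd3e, Cd3d, Adgre1 and Tyrobp had 0 counts in all 6 libraries. The summed level of the list was between 8.08 and 8.59 CPM in lung3 and between 3.18 and 4.24 CPM in MYBup libraries, most of it Cd68, with 8.15, 7.27 and 7.69 CPM in lung3 and 4.15, 2.29 and 3.25 CPM in MYBup libraries. Of 9 lung epithelial markers, 7 including Sftpc, Sftpb and Scgb1a1 had 0 counts, with sums between 0.346 and 0.970 CPM in lung3 and between 0.591 and 0.7999 CPM in MYBup libraries. Of 6 erythroid markers, 5 had 0 counts in all 6 libraries and the sum was at most 0.0739 CPM. Endothelial sums lay between 0.218 and 0.970 CPM in lung3 and between 0.978 and 1.49 CPM in MYBup libraries, with Tek, Cldn5 and Kdr at 0. Fibroblast and mural sums were lower in lung3, between 16.1 and 22.5 CPM, than in MYBup libraries, between 39.0 and 48.6 CPM, nearly all Pdgfra, with Pdgfrb, Col3a1 and Lum at 0. These sums lay between 21.9 and 30.5 CPM in wt and between 36.9 and 49.2 CPM in mock libraries. The MYBup, wt and mock cells had not been passaged in mice. The part of Cd68 and Pdgfra transcripts in the differences above was not tested. In bulk RNA, fewer cells that express a gene and less RNA per cell cannot be told apart.

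**Figure D2:**
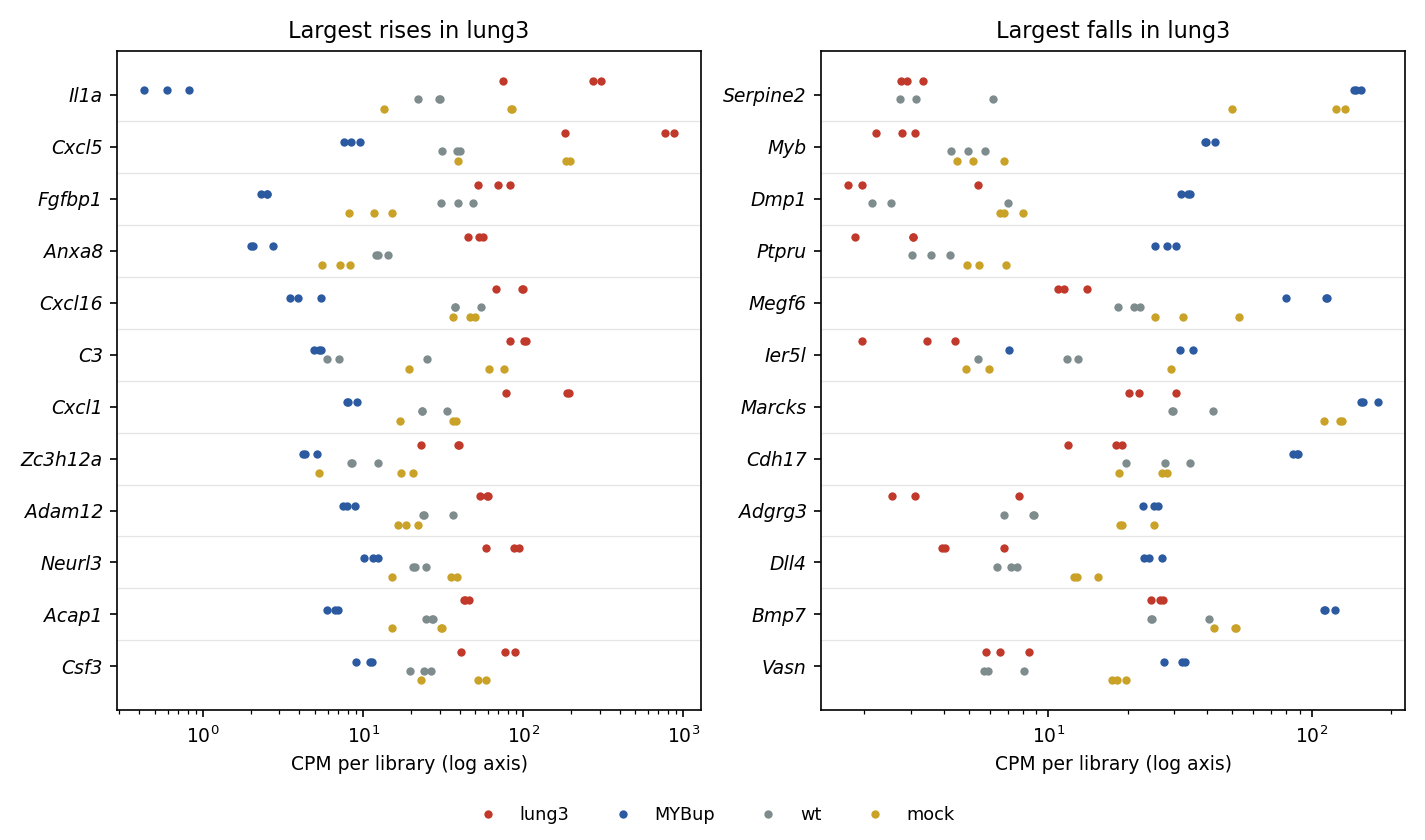
CPM of the 12 largest rises (left) and the 12 largest falls (right) in lung3 over MYBup, on a log axis. They were taken from called genes with a mean log2 CPM of at least 3 and no overlap of the groups. Genes with larger differences below that level, such as Ccl2, Hexa and Asgr1, are not shown. Each point is 1 library and colours mark the 4 groups. By that choice the lung3 and MYBup points of a gene do not overlap, and MYBup replicate 1 of Ier5l stands near the lung3 libraries at 7.09 CPM.

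Other genes with the largest rises, at a mean log2 CPM of at least 3, code for secreted, membrane-linked and signalling proteins of epithelial cells. Fgfbp1, a carrier that releases fibroblast growth factors from the matrix, had 82.1, 69.9 and 52.3 CPM in lung3 libraries, against 2.53, 2.29 and 2.51 CPM in MYBup libraries (log2 fold change 4.79, SE 0.272, adjusted p = 1.18e-07). Anxa8, a calcium-dependent membrane-binding annexin, had 55.8, 53.0 and 44.9 CPM in lung3 libraries, against 2.04, 1.996 and 2.72 CPM in MYBup libraries (log2 fold change 4.48, SE 0.171, adjusted p = 5.49e-09). Both were intermediate in wt cells, at 39.4 CPM for Fgfbp1 and 12.9 CPM for Anxa8. Adam12, a membrane metalloprotease, averaged 57.8 ± 3.58 CPM in lung3 and 8.13 ± 0.716 CPM in MYBup cells (SD, n = 3 each), with a log2 fold change of 2.82. Neurl3, a ubiquitin ligase, averaged 80.0 ± 19.0 CPM in lung3 and 11.4 ± 1.16 CPM in MYBup cells, and Acap1, a regulator of Arf6 and endosome recycling, averaged 44.0 ± 1.58 CPM in lung3 and 6.57 ± 0.525 CPM in MYBup cells. Their log2 fold changes were 2.81 and 2.74 in that order. The 12 genes exceeded the difference between wt and mock cells, with adjusted p of at most 0.000773 in the difference of differences.

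Among the largest falls, at a mean log2 CPM of at least 3, were regulators of adhesion, proteolysis and Notch and BMP signalling. Marcks, an actin- and membrane-binding substrate of protein kinase C, had 20.3, 22.1 and 30.5 CPM in lung3 libraries, against 179, 157 and 154 CPM in MYBup libraries (log2 fold change -2.74, SE 0.167, adjusted p = 1.57e-07). Cdh17, a cadherin known from the intestine, had 11.9, 19.1 and 18.1 CPM in lung3 libraries, against 85.0, 88.8 and 88.3 CPM in MYBup libraries (log2 fold change -2.43, SE 0.215, adjusted p = 2.34e-06). Bmp7, a bone morphogenetic protein, had 24.4, 26.4 and 27.2 CPM in lung3 libraries, against 111, 113 and 122 CPM in MYBup libraries, with a log2 fold change of -2.15. Ptpru, a receptor tyrosine phosphatase of cell contacts, had 3.06, 1.85 and 3.05 CPM in lung3 libraries, against 25.4, 28.2 and 30.5 CPM in MYBup libraries, with a log2 fold change of -3.36. In each of these 4 genes every lung3 library lay below every MYBup library.

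Dll4, a Notch ligand, averaged 4.92 ± 1.62 CPM in lung3 and 24.7 ± 2.05 CPM in MYBup cells (log2 fold change -2.30), and its exons overlap Gm14207 on the opposite strand. Megf6, a protein with EGF-like repeats, averaged 12.1 ± 1.66 CPM in lung3 and 103 ± 19.4 CPM in MYBup cells (log2 fold change -3.08). Vasn, which binds TGF-beta, averaged 6.93 ± 1.38 CPM in lung3 and 31.0 ± 2.95 CPM in MYBup cells (log2 fold change -2.14) and shares 160 exon bases with Dnaja3. Dmp1, an acidic matrix phosphoprotein, had 1.96, 1.73 and 5.41 CPM in lung3 libraries, against 34.0, 34.6 and 31.9 CPM in MYBup libraries, and its log2 fold change of -3.39 was -4.16 without lung3 replicate 3. Adgrg3, an adhesion G protein-coupled receptor, had 2.55, 3.12 and 7.76 CPM in lung3 libraries, against 25.1, 26.0 and 22.9 CPM in MYBup libraries, and its log2 fold change of -2.41 was -3.14 without the same library. Ier5l, an immediate-early gene, had 4.44, 1.96 and 3.47 CPM in lung3 libraries, against 7.09, 31.6 and 35.4 CPM in MYBup libraries; here MYBup replicate 1 stood apart from the other MYBup libraries.

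Serpine2, an inhibitor of thrombin and plasminogen activators, was low in lung3 and wt cells and high in both plasmid lines. It had 2.76, 3.35 and 2.91 CPM in lung3 libraries, against 154, 148 and 145 CPM in MYBup libraries (log2 fold change -5.64, SE 0.396, adjusted p = 4.3e-07), with 3.14, 2.73 and 6.19 CPM in wt and 124, 134 and 49.9 CPM in mock libraries. The difference of differences was -0.96 (SE 0.543, adjusted p = 0.24) and did not pass the threshold, which does not show that the 2 differences are equal.

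Sterol and fatty acid synthesis genes rose together in lung3 over MYBup cells. These genes make cholesterol from acetyl-CoA through mevalonate and desaturate and elongate fatty acids, and the factors Srebf2 and Srebf1 are known to drive them when sterols are low. Of 34 tested genes, 30 rose, 1 fell and 3 were not called, where 24.2% of all genes rose and 24.6% fell, with a median log2 fold change of 1.03, and 18 rose by at least 2-fold. Hmgcs1, which makes the precursor of mevalonate, had 229, 211 and 227.1 CPM in lung3 libraries, against 61.4, 62.0 and 61.0 CPM in MYBup libraries (log2 fold change 1.85, SE 0.134, adjusted p = 5.15e-07). Idi1, the isopentenyl diphosphate isomerase, had 45.04, 48.5 and 51.0 CPM in lung3 libraries, against 9.29, 10.3 and 11.1 CPM in MYBup libraries, with a log2 fold change of 2.23. Msmo1, a sterol demethylase, had 223, 227.1 and 216 CPM in lung3 libraries, against 71.0, 53.0 and 57.6 CPM in MYBup libraries, with a log2 fold change of 1.88. Exons of Hmgcs1 and of Idi1 overlap Gm48342 and Gm48574 on the opposite strand.

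On the fatty acid side, Scd1, the stearoyl-CoA desaturase, had 122, 114 and 159.6 CPM in lung3 libraries, against 24.0, 21.1 and 20.5 CPM in MYBup libraries (log2 fold change 2.60, SE 0.210, adjusted p = 1.19e-06). Srebf2 averaged 190.4 ± 22.9 CPM in lung3 and 93.4 ± 9.33 CPM in MYBup cells and rose, with a log2 fold change of 1.03. Srebf1 was the 1 member called lower, with 92.2, 63.4 and 82.1 CPM in lung3 libraries, against 92.7, 112 and 119 CPM in MYBup libraries (log2 fold change -0.44, SE 0.146, adjusted p = 0.0226). The list had 0 lower calls without lung3 replicate 2, MYBup replicate 2 or MYBup replicate 3.

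In the same fit, wt and mock cells were set beside each end. The list median was 0.11 for lung3 over wt, with 1 gene rising and 0 falling (2.91% and 2.44% of all genes), and -0.73 for MYBup over mock, with 0 rising and 26 falling (14.3% and 12.6% of all genes). Hmgcs1 had 198, 147 and 211 CPM in wt and 160.1, 145 and 118 CPM in mock libraries, all above the MYBup libraries. In the difference of differences 25 genes were above 0 and 0 below (9.52% and 10.4% of all genes), with a median of 0.74. The letters TCACNCCAC, a sterol regulatory element-like motif, were searched on both strands of the same RefSeq promoter windows. Of the 30 genes that rose, 20 have an entry and 1, Hmgcs1, holds a match, 137 bases before its start, while 346 of 32851 promoters (1.05%) hold one. It is shown with the match in capitals because Hmgcs1 is the 1 gene with a match.
Hmgcs1 promoter, chr13:119690169-119690268, + strand: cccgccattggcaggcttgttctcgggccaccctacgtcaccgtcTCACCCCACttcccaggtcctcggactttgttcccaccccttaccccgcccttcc

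**Figure D3:**
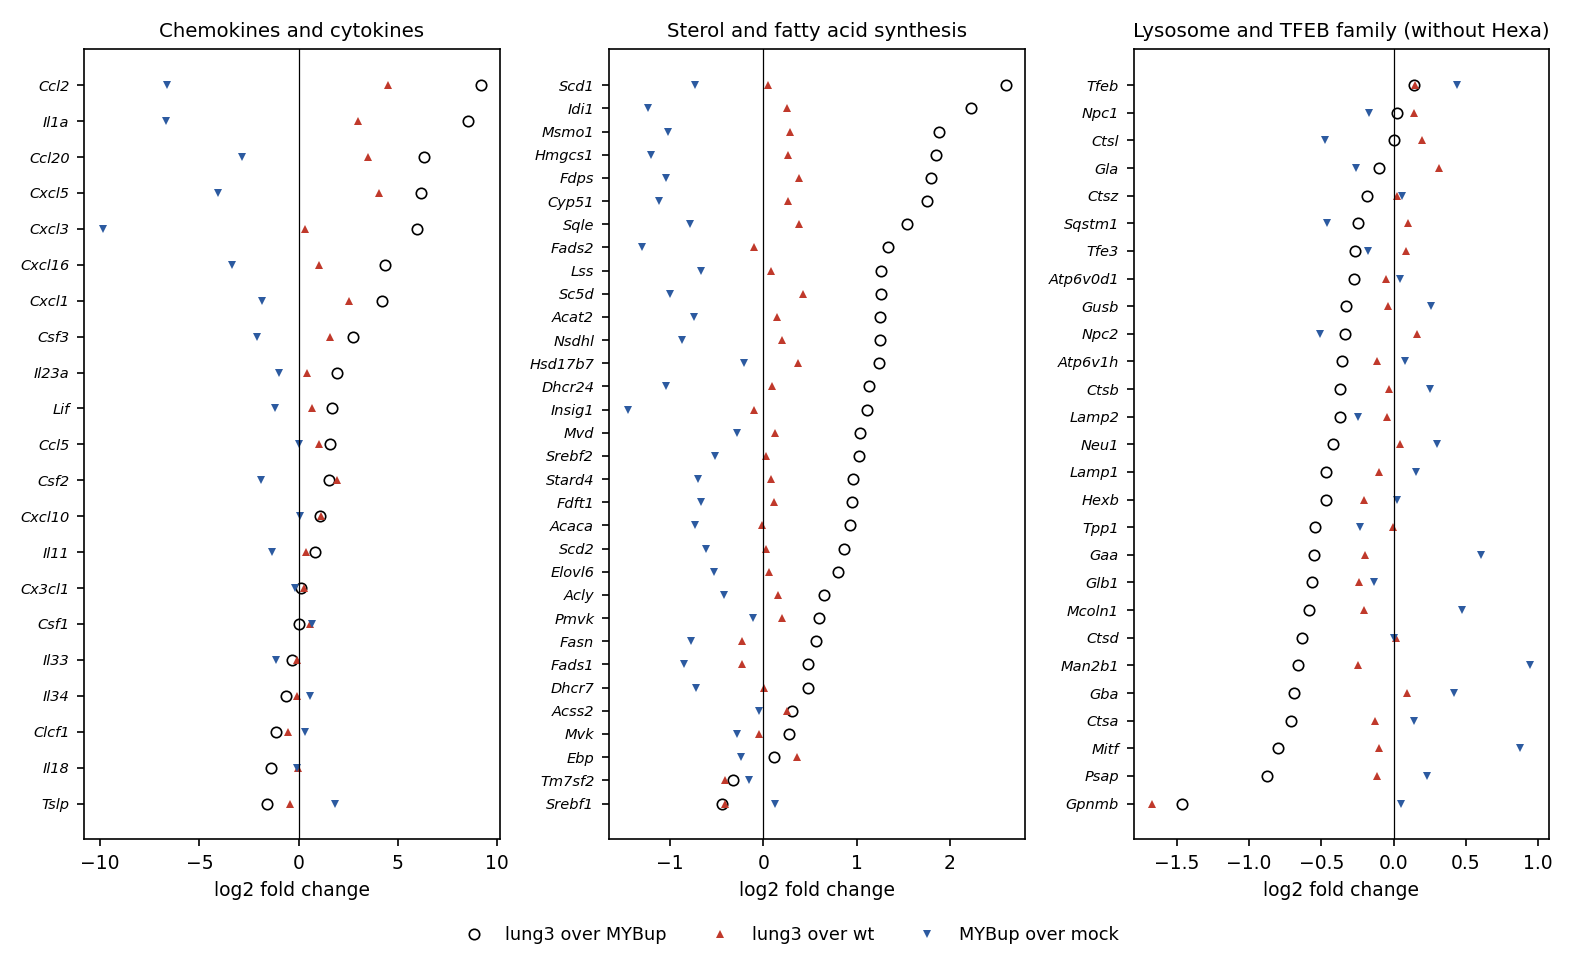
Log2 fold changes of tested members of 3 lists, sorted by lung3 over MYBup (open circles), with lung3 over wt (red triangles pointing up) and MYBup over mock (blue triangles pointing down). Hexa is left out of the lysosome panel, since it had 0 counts in MYBup libraries. The medians over the whole sterol list are 0.11 for the red and -0.73 for the blue triangles, and those over the chemokine list 0.65 and -1.17.

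Epithelial genes were on balance higher and mesenchymal genes lower in lung3 than in MYBup cells. Epithelial cells are held by cadherin, claudin and desmosome contacts and keratin filaments, and lose them in an epithelial-mesenchymal transition. Of 33 tested junction and keratin genes, 18 rose, 4 fell and 11 were not called (24.2% of all genes rose and 24.6% fell), with a median of 0.48. Of 10 tested mesenchymal genes, 0 rose and 5 fell, with a median of -0.42. In many alternatives 1 was called higher. These were DESeq2, the fit with no filter on low counts, and the fits without any 1 library other than lung3 replicate 3.

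Krt17, a basal keratin, had 3.71, 2.19 and 5.48 CPM in lung3 libraries, against 0.163, 0.148 and 0.160 CPM in MYBup libraries (log2 fold change 4.57, SE 0.493, adjusted p = 1.08e-05). Cldn7, a claudin of tight junctions, had 8.95, 8.78 and 15.9 CPM in lung3 libraries, against 0.815, 1.04 and 1.60 CPM in MYBup libraries (log2 fold change 3.24, SE 0.341, adjusted p = 9.32e-06). Rab25, an epithelial recycling GTPase, had 3.57, 2.42 and 5.82 CPM in lung3 libraries, against 0.407, 0 and 0.160 CPM in MYBup libraries and 8.68, 10.3 and 8.58 CPM in wt and 0.0474, 0 and 0 CPM in mock libraries, so the untransfected lines were above the plasmid lines. Its log2 fold change of 4.44 was 5.34 without MYBup replicate 1. Cdh1, coding for E-cadherin, averaged 463 ± 53.8 CPM in lung3 and 261 ± 6.403 CPM in MYBup cells (SD, n = 3 each) and rose, with a log2 fold change of 0.83 and a difference of differences of 0.03 (SE 0.135, adjusted p = 0.9). The 4 that fell were Cldn3, Jup, Krt8 and Esrp1; Krt8, a luminal keratin, averaged 741 ± 72.7 CPM in lung3 and 1151 ± 5.43 CPM in MYBup cells, with a log2 fold change of -0.64. In the difference of differences 5 epithelial genes were above 0 and 2 below (9.52% and 10.4% of all genes). In wt against mock, 13 rose and 6 fell, where 17.9% and 18% of all genes did.

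Vim, the intermediate filament of mesenchymal cells, had 2438, 2134 and 2814 CPM in lung3 libraries, against 5567, 5580.2 and 5695 CPM in MYBup libraries (log2 fold change -1.19, SE 0.0999, adjusted p = 1.66e-06). Foxc2, a transition factor, averaged 5.21 ± 0.850 CPM in lung3 and 21.2 ± 5.37 CPM in MYBup cells (log2 fold change -2.05), Twist1 averaged 12.01 ± 1.83 CPM in lung3 and 24.97 ± 0.625 CPM in MYBup cells (log2 fold change -1.06) and Snai1 averaged 8.27 ± 2.29 CPM in lung3 and 16.3 ± 2.55 CPM in MYBup cells (log2 fold change -0.95). The fifth was Tcf4, with a log2 fold change of -0.56. Of the 5, Vim and Foxc2 were below 0 in the difference of differences, at -0.78 (SE 0.140, adjusted p = 0.00196) and -0.88 (SE 0.289, adjusted p = 0.0467). Over the 10 tested mesenchymal genes, 1 was above 0 and 2 below in that test (9.52% and 10.4% of all genes). In wt against mock, 0 of them rose and 4 fell, where 17.9% and 18% of all genes did.

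Mammary lineage and progenitor genes moved in both directions, 6 up and 7 down of 15 tested (24.2% and 24.6% of all genes). Ly6e, a GPI-anchored Ly6 protein, had 32.2, 29.3 and 59.5 CPM in lung3 libraries, against 0.163, 0.296 and 0.160 CPM in MYBup libraries (log2 fold change 7.60, SE 0.513, adjusted p = 3.18e-07), with 8.91, 8.47 and 16.4 CPM in wt and 1.94, 2.71 and 1.31 CPM in mock libraries. The lung3 level lay above all other groups and the MYBup level below them. Prom2, a prominin of membrane protrusions, had 15.7, 13.97 and 11.2 CPM in lung3 libraries, against 40.4, 46.1 and 47.6 CPM in MYBup libraries (log2 fold change -1.72, SE 0.202, adjusted p = 2.04e-05), and a difference of differences of -3.76 (SE 0.292, adjusted p = 4.87e-06), with 27.2 CPM in wt and 6.63 CPM in mock cells. Ly6a rose with a log2 fold change of 2.37, which fell to 1.48 and lost its call without lung3 replicate 3. Tfap2c was under 1 CPM in every lung3 and MYBup library and lost its call without lung3 replicate 1 or MYBup replicate 3.

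Matrix, protease and adhesion genes split in direction. Of 30 tested matrix genes 6 rose and 12 fell, of 31 proteases and inhibitors 11 rose and 12 fell, and of 26 integrins and adhesion receptors 8 rose and 10 fell, where 24.2% of all genes rose and 24.6% fell. The medians were -0.24, -0.0001 and -0.13 in the same order. Lama3, a chain of laminin-332, had 58.9, 105 and 58.9 CPM in lung3 libraries, against 11.1, 10.9 and 12.6 CPM in MYBup libraries (log2 fold change 2.67, SE 0.243, adjusted p = 2.71e-06). Serpinb2, a plasminogen activator inhibitor whose exons overlap Serpinb10, had 13.2, 23.8 and 8.80 CPM in lung3 libraries, against 2.28, 1.70 and 1.49 CPM in MYBup libraries, with a log2 fold change of 3.05. Adam8, a leukocyte-type metalloprotease, averaged 67.8 ± 2.33 CPM in lung3 and 14.8 ± 1.06 CPM in MYBup cells (log2 fold change 2.20).

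Col6a2, a collagen VI chain, had 0.146, 0.115 and 0.277 CPM in lung3 libraries, against 0.652, 1.33 and 1.65 CPM in MYBup libraries, with a log2 fold change of -2.68. Thbs2, an antiangiogenic thrombospondin, had 0, 0 and 0.208 CPM in lung3 libraries, against 0.815, 1.11 and 0.907 CPM in MYBup libraries; its log2 fold change of -3.42 rests on few counts and was -2.80 without lung3 replicate 1 and -6.99 without lung3 replicate 3. Cadm1, an immunoglobulin-type adhesion molecule, had 0.291, 0.115 and 0.208 CPM in lung3 libraries, against 2.53, 2.81 and 2.40 CPM in MYBup libraries (log2 fold change -3.52, SE 0.329, adjusted p = 3.46e-06). Itga2, a collagen receptor subunit, averaged 131 ± 29.8 CPM in lung3 and 48.0 ± 14.2 CPM in MYBup cells (log2 fold change 1.44), and Itgb6 averaged 6.25 ± 0.557 CPM in lung3 and 2.20 ± 0.338 CPM in MYBup cells (log2 fold change 1.52). Postn, a matricellular protein, had 1.82, 3.002 and 5.20 CPM in lung3 libraries, against 1.14, 0.148 and 0.853 CPM in MYBup libraries. It was called higher in lung3 with a log2 fold change of 2.23, and lost the call with DESeq2 and without lung3 replicate 3, MYBup replicate 2 or MYBup replicate 3.

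Of a published breast-to-lung metastasis signature, 13 genes were tested, of which 3 rose and 7 fell in lung3 (24.2% and 24.6% of all genes), with a median of -0.27. The 3 that rose were Cxcl1, Ptgs2 and Vcam1. In the difference of differences 5 genes of the signature were above 0 and 3 below (9.52% and 10.4% of all genes), with a median of -0.21. Mmp1a, an interstitial collagenase, had 0.946, 0.808 and 1.59 CPM in lung3 libraries, against 6.35, 4.36 and 5.39 CPM in MYBup libraries and fell (log2 fold change -2.21, SE 0.352, adjusted p = 0.000232). Id1, an inhibitor of differentiation factors, had 11.6, 10.97 and 8.46 CPM in lung3 libraries, against 21.7, 36.2 and 39.7 CPM in MYBup libraries and fell as well (log2 fold change -1.67, SE 0.309, adjusted p = 0.000704).

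Of 10 tested EGF ligand and ErbB receptor genes, 2 rose, 4 fell and 4 were not called (24.2% of all genes rose and 24.6% fell). Egfr, the EGF receptor, had 9.97, 13.4 and 8.53 CPM in lung3 libraries, against 0.407, 0.961 and 1.17 CPM in MYBup libraries (log2 fold change 3.56, SE 0.300, adjusted p = 1.72e-06), with 4.88 CPM in wt and 2.93 CPM in mock cells. Of its ligands, Btc averaged 2.61 ± 0.0578 CPM in lung3 and 7.75 ± 0.511 CPM in MYBup cells (log2 fold change -1.57) and Areg averaged 30.3 ± 5.48 CPM in lung3 and 63.0 ± 5.19 CPM in MYBup cells (log2 fold change -1.06), and both fell. Nrg2, a ligand of Erbb3 and Erbb4, had a log2 fold change of -1.09.

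Among 30 TGF-beta and YAP target genes 12 rose and 7 fell (24.2% and 24.6% of all genes), with a median of 0.19. Edn1, endothelin-1, had 7.13, 8.54 and 6.65 CPM in lung3 libraries, against 0.652, 0.665 and 0.373 CPM in MYBup libraries (log2 fold change 3.75, SE 0.344, adjusted p = 2.94e-06). F3, tissue factor, had 28.6, 30.8 and 23.8 CPM in lung3 libraries, against 5.13, 4.95 and 5.39 CPM in MYBup libraries, with a log2 fold change of 2.42. Among those that fell were Id2 at 27.5 ± 4.64 CPM in lung3 and 89.9 ± 4.84 CPM in MYBup cells (log2 fold change -1.71) and Id3 at 28.4 ± 3.28 CPM in lung3 and 99.4 ± 18.5 CPM in MYBup cells (log2 fold change -1.81).

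AP-1 and immediate early genes were called more often lower than higher, 14 against 8 of 27 (24.6% and 24.2% of all genes), with a median of -0.31. The difference of differences went the other way in calls, with 9 genes above 0 and 4 below (9.52% and 10.4% of all genes). Its median was -0.41. Fos had 5.09, 6.004 and 8.18 CPM in lung3 libraries, against 26.3, 23.4 and 30.2 CPM in MYBup libraries (log2 fold change -2.04, SE 0.340, adjusted p = 0.000321), and Egr3 had 0.0728, 0.231 and 0.139 CPM in lung3 libraries, against 0.489, 1.11 and 1.28 CPM in MYBup libraries, with a log2 fold change of -2.80. Atf3 averaged 14.5 ± 2.79 CPM in lung3 and 5.36 ± 0.219 CPM in MYBup cells and rose, with a log2 fold change of 1.44. The 14 lower calls became 9 without MYBup replicate 2 or 3, and MYBup replicate 1 was the lowest MYBup library for Jun, at 73.3 CPM, and for Junb, at 59.5 CPM.

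**Figure D4:**
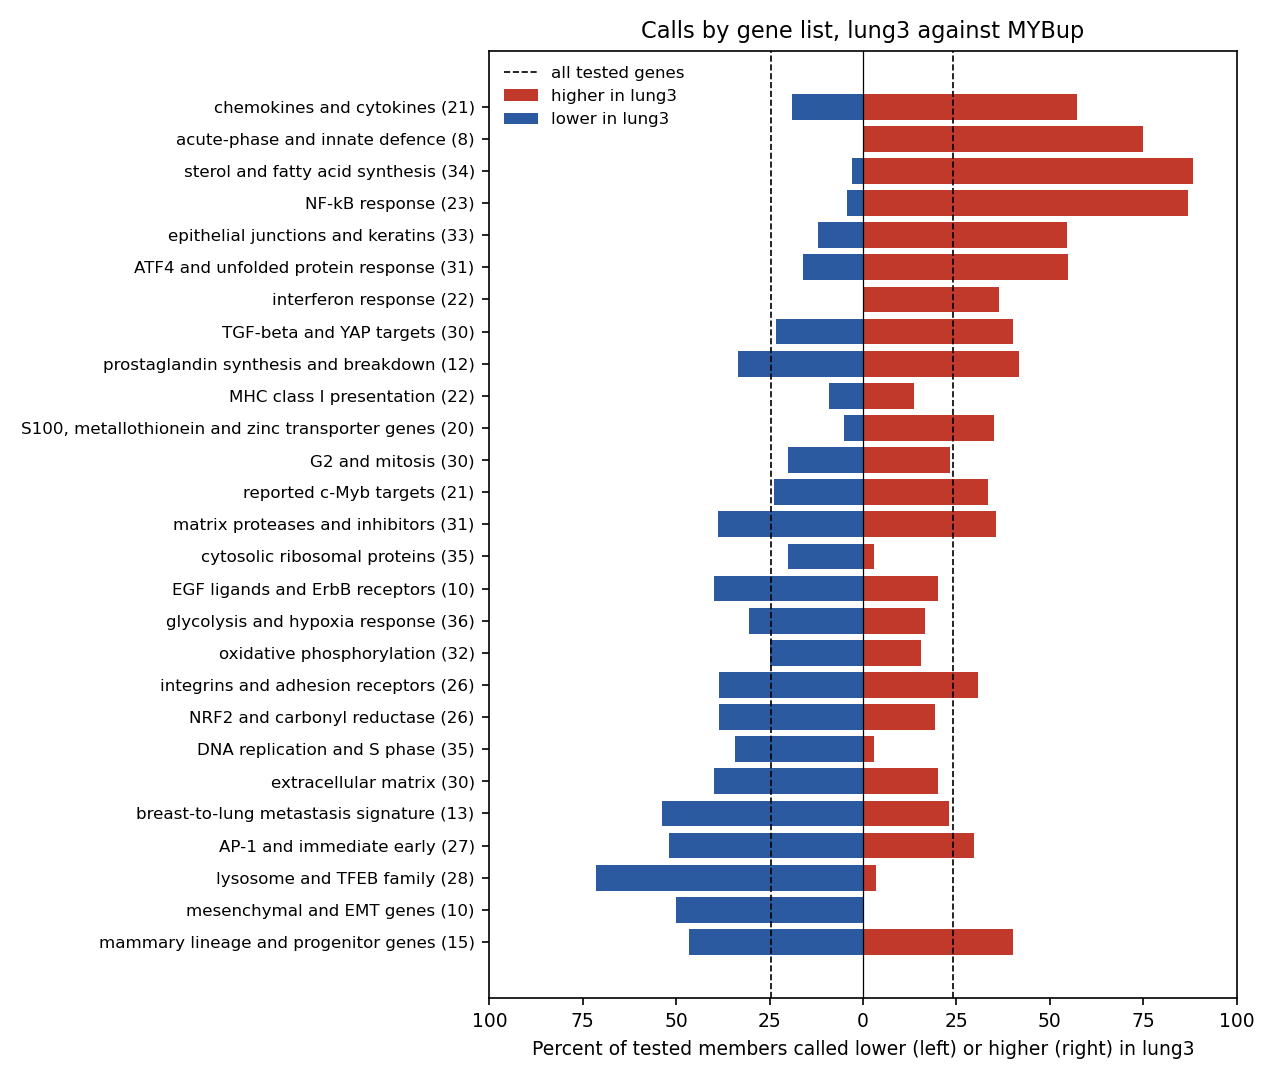
Share of the tested members of each of 27 gene lists called lower (blue, left) and higher (red, right) in lung3 over MYBup, with the number tested in brackets and the lists sorted by median log2 fold change. Dashed lines mark the shares over all tested genes, 24.6% lower and 24.2% higher; sterol, NF-kB and acute-phase genes reach furthest to the right and lysosome genes furthest to the left.

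Lysosome genes fell in lung3 relative to MYBup cells, by small amounts. Of 28 tested genes, 20 fell, 1 rose and 7 were not called, where 24.6% of all genes fell and 24.2% rose, with a median of -0.40. Psap, the precursor of the saposins, averaged 360.2 ± 42.8 CPM in lung3 and 660.1 ± 27.8 CPM in MYBup cells (SD, n = 3 each; log2 fold change -0.87, SE 0.0833, adjusted p = 4.12e-06). Mitf, a factor of the TFEB family, averaged 7.85 ± 1.03 CPM in lung3 and 13.7 ± 0.724 CPM in MYBup cells (log2 fold change -0.80). Gpnmb, a lysosomal glycoprotein, averaged 6.22 ± 1.72 CPM in lung3 and 17.5 ± 0.921 CPM in MYBup cells (log2 fold change -1.47). The list median was 0.35 for MYBup over wt, -0.23 for wt over mock, and -0.21 for the difference of differences, in which 6 genes were below 0 and 3 above (10.4% and 9.52% of all genes). For lung3 over wt the median was -0.04, with 0 rising and 1 falling (2.91% and 2.44% of all genes). For MYBup over mock it was 0.06, with 6 rising and 3 falling (14.3% and 12.6% of all genes). In wt against mock, 2 rose and 13 fell, where 17.9% and 18% of all genes did.

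The member that rose, Hexa, is an on-off case. Hexa, the alpha subunit of beta-hexosaminidase, had 6.98, 6.81 and 10.3 CPM in lung3 libraries, against 0, 0 and 0 CPM in MYBup libraries, and 8.77, 8.22 and 7.53 CPM in wt and 0, 0 and 0 CPM in mock libraries. It was at least 122-fold higher in lung3 than in MYBup cells against a floor of 3 counts over the MYBup group. Its exons overlap Tmem202 on the opposite strand by 255 bases. The plasmid lines thus had no counts and the untransfected lines did.

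Of 22 tested interferon response genes 8 rose and 0 fell (24.2% and 24.6% of all genes). Without lung3 replicate 3, the library highest for Rsad2 and Oas1a, 5 rose and 1 fell, and 6 rose and 1 fell without lung3 and mock replicates 3. Rsad2, the antiviral viperin, had 1.38, 0.693 and 4.44 CPM in lung3 libraries, against 0, 0.0739 and 0.0533 CPM in MYBup libraries; its log2 fold change of 5.47 was 4.40 without that library. Oas1a had 1.46, 1.85 and 4.92 CPM in lung3 libraries, against 0.489, 0.518 and 0.373 CPM in MYBup libraries, and its log2 fold change of 2.63 was 1.83 without it. In the difference of differences 2 of the 22 interferon response genes were above 0 and 0 below, where 9.52% and 10.4% of all genes were. Of 22 MHC class I presentation genes 3 rose and 2 fell, shares below those of all genes, and 1 fell with the replicate number as a block. Nlrc5, the activator of class I genes, averaged 11.5 ± 3.46 CPM in lung3 and 4.47 ± 0.191 CPM in MYBup cells (log2 fold change 1.37).

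ATF4 and unfolded protein response genes were mostly higher in lung3, 17 up and 5 down of 31 (24.2% and 24.6% of all genes), with a median of 0.45. The 17 ranged from 12, without lung3 replicate 1, to 19, with a replicate block on the 6 libraries. The 5 became 3 without MYBup replicate 2 or 3. Asns, the asparagine synthetase, averaged 325 ± 70.0 CPM in lung3 and 160.0 ± 21.3 CPM in MYBup cells (log2 fold change 1.02), and Vldlr, a lipoprotein receptor, averaged 5.70 ± 1.29 CPM in lung3 and 1.73 ± 0.257 CPM in MYBup cells (log2 fold change 1.72). NRF2 and carbonyl reductase genes were 5 up and 10 down of 26 (24.2% and 24.6% of all genes). The 5 became 3 without lung3 replicate 2, MYBup replicate 1 or MYBup replicate 3. The list includes Cbr1, a carbonyl reductase, at 2.33, 1.85 and 3.81 CPM in lung3 libraries, against 17.7, 18.0 and 18.2 CPM in MYBup libraries (log2 fold change -2.70, SE 0.212, adjusted p = 9.94e-07) and Gstm2 at 20.5 ± 3.52 CPM in lung3 and 5.92 ± 1.63 CPM in MYBup cells (log2 fold change 1.80). Of 36 glycolysis and hypoxia genes 6 rose and 11 fell (24.2% and 24.6% of all genes); Car9, a hypoxia-induced carbonic anhydrase, averaged 51.8 ± 5.59 CPM in lung3 and 125 ± 5.18 CPM in MYBup cells (log2 fold change -1.27) and Hk2, a hexokinase, 162 ± 16.3 CPM in lung3 and 96.5 ± 6.14 CPM in MYBup cells (log2 fold change 0.74).

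Prostaglandin synthesis and breakdown genes were 5 up and 4 down of 12 (24.2% and 24.6% of all genes), and the 5 became 3 without MYBup replicate 2. Ptges, the prostaglandin E synthase downstream of Ptgs2, had 12.95, 16.6 and 19.5 CPM in lung3 libraries, against 7.17, 7.47 and 5.97 CPM in MYBup libraries (log2 fold change 1.26, SE 0.183, adjusted p = 0.000113), and mock cells had 46.0, 51.4 and 39.1 CPM. Ptgr1, which inactivates prostaglandins and leukotrienes, averaged 15.3 ± 1.16 CPM in lung3 and 28.2 ± 4.12 CPM in MYBup cells and fell (log2 fold change -0.87). Of 20 S100, metallothionein and zinc transporter genes 7 rose and 1 fell, a lower call that was lost without lung3 replicate 1 or 2 or MYBup replicate 3, with the zinc importer Slc39a4 at 33.6 ± 6.94 CPM in lung3 and 13.2 ± 0.513 CPM in MYBup cells (log2 fold change 1.36).

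Cell cycle genes had 0 calls of 2-fold or more, and over all tested genes 24.2% rose and 24.6% fell at any size. Of 35 replication and S phase genes 1 rose and 12 fell, with a median of -0.20. Gins2, a subunit of the replicative helicase complex whose exons overlap Gse1, averaged 27.2 ± 1.47 CPM in lung3 and 44.6 ± 3.72 CPM in MYBup cells (log2 fold change -0.71). Of 30 G2 and mitosis genes 7 rose and 6 fell, near the shares of all genes, with Hmmr, a hyaluronan receptor of the spindle, at 202 ± 19.3 CPM in lung3 and 119 ± 7.43 CPM in MYBup cells (log2 fold change 0.77) and the cyclin Ccnb2 at 115 ± 5.72 CPM in lung3 and 167 ± 1.995 CPM in MYBup cells (log2 fold change -0.53). Of 32 oxidative phosphorylation genes 5 rose and 8 fell, and of 35 ribosomal protein genes 1 rose and 7 fell. The 7 became 3 without lung3 replicate 2 or 3, the 1 became 0 without any 1 of the lung3 libraries, and the 1 became 7 with the replicate number as a block in a fit of the 6 libraries.

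Among genes with large differences per kilobase of exon, Npm1, a nucleolar chaperone, averaged 3564 ± 290.0 CPM in lung3 and 2076 ± 211 CPM in MYBup cells (log2 fold change 0.78), Eif5a, a translation factor, 1851 ± 129 CPM in lung3 and 1183 ± 89.6 CPM in MYBup cells (log2 fold change 0.65) and Hspd1, the mitochondrial chaperonin, 1598 ± 102 CPM in lung3 and 865 ± 48.8 CPM in MYBup cells (log2 fold change 0.89), all higher in lung3. Fth1, the ferritin heavy chain, averaged 1539 ± 124 CPM in lung3 and 3439 ± 144 CPM in MYBup cells (log2 fold change -1.16) and Ptma, prothymosin alpha, 1451 ± 76.2 CPM in lung3 and 1989.7 ± 145 CPM in MYBup cells (log2 fold change -0.46), both lower. Hsp90ab1, Rpl4, Rplp1 and Rplp0 were called in the 12-library fit but lost the call under at least 1 alternative, and are not read further.

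Some genes were nearly silent at one end and expressed at the other. With at most 5 counts summed over a group and a mean of at least 3 CPM in the other, 12 genes were silent in MYBup cells and 7 in lung3 cells. Mal2, a protein of apical transport, had 369 counts in lung3 and 0 in MYBup libraries and was at least 149-fold higher in lung3. Ociad2 had 559 counts in lung3 and 1 in MYBup libraries, a ratio of 676 with an exact interval from 121 to 26757. Epb41l4a had 638 counts in lung3 and 4 in MYBup libraries, a ratio of 193 (interval 75.0 to 710). For 7 of the 12 genes both wt and mock cells had at least 3 CPM, including Ociad2 and Epb41l4a, so that MYBup cells alone were low there. Hexa had 0 counts in mock cells as well.

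Of the 7 genes silent in lung3, Asgr1, coding for an asialoglycoprotein receptor subunit, had 2 counts in lung3 and 446 in MYBup libraries, with 6 counts each in wt and mock libraries. Tbc1d9 had 0 counts in lung3 and 290 in MYBup libraries and was at least 79.9-fold lower in lung3. For all 7, wt cells were under 3 CPM, and for 6 of them mock cells were too; the other was Edil3, with a mean of 5.04 CPM in mock cells.

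The wt and mock levels were set beside the 2 ends, for genes chosen by a wide gap between lung3 and MYBup. Other groups tend to fall within such a gap by this choice alone. The counts therefore do not show that wt and mock cells are intermediate. Of the 453 genes at least 2-fold higher in lung3, the wt mean lay between the lung3 and MYBup means for 364 and the mock mean for 303, both for 264. Of the 687 at least 2-fold lower, the same held for 571, 482 and 413 genes. On the log2 scale with 0.1 CPM added, wt was nearer lung3 for 335 of 453 higher and 523 of 687 lower genes, and mock was nearer lung3 for 195 and 212 of them. For 181 higher and 345 lower genes wt was nearer lung3 and mock nearer MYBup, the pattern of Serpine2 and Hexa.

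Medians differed between whole chromosomes, where the median size of a difference over all tested genes was 0.31. The median log2 fold change per chromosome ran from -0.18 on chromosome 10, which carries Myb, over 541 genes to 0.27 on chromosome 15 over 455 genes. On chromosome 15, 212 genes rose and 43 fell, and on chromosome 10, 70 rose and 203 fell. Subtracting each chromosome's median left 5305 calls, against 5510 without it, and 1781 in the difference of differences, against 2252.

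**Figure D5:**
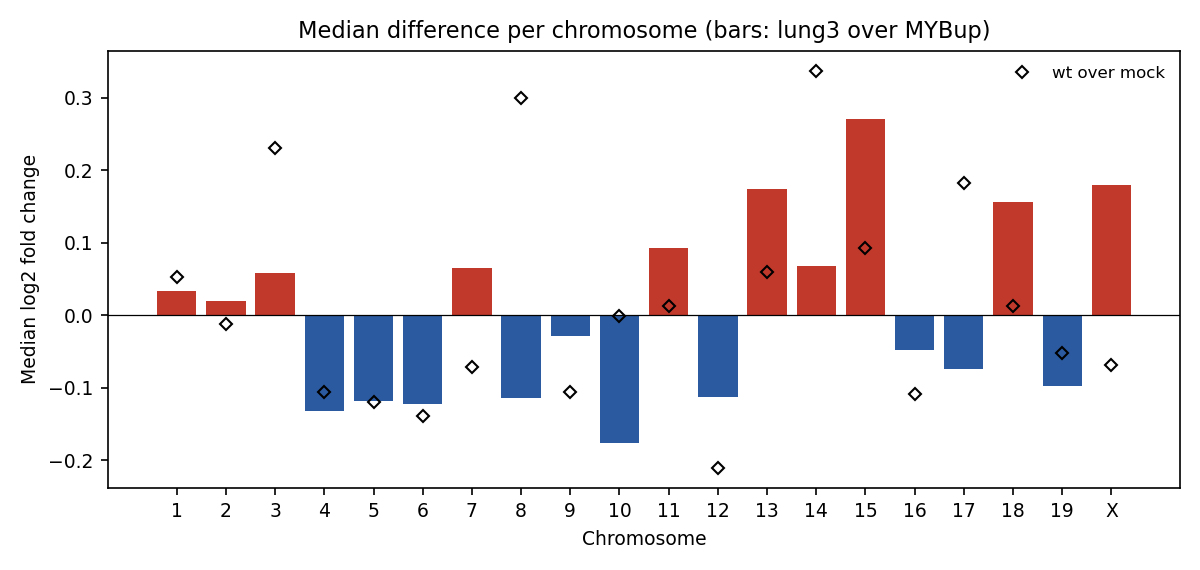
Median log2 fold change of lung3 over MYBup per chromosome (bars) and of wt over mock cells (open diamonds), for chromosomes with at least 100 tested genes. Chromosome 15 has the highest bar at 0.27 and chromosome 10 the lowest at -0.18, while the diamonds of chromosomes 8 and 14 lie at 0.30 and 0.34.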

How the data were processed

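RNA-seq counts of 12 libraries of 4T1 cells were used, per the labels 3 each of lung3, MYBup, wt and mock. Per the labels' protocols, RNA was column-purified and libraries were made with a TruSeq RNA kit, which was not stated to keep strand. The authors deposited raw read counts per gene, not normalised, for 22880 features; 22570 have a symbol, 7336 are 0 in all libraries, and 2708 values over 4 digits are rounded to 4 significant digits. The build was GRCm38 and the tools named are edgeR and STAR, per the submitters' processing notes; the sources used here name neither counting tool nor annotation version. No columns of the table were left unused (0).

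Gene positions and exon overlaps are from GENCODE M21 on GRCm38, and promoters from RefSeq (GRCm38.p6). Tests used R 4.3.3 with edgeR 4.0.16: TMM factors, filterByExpr, and a quasi-likelihood model of the 12 libraries by group, with p adjusted over 11291 genes. The SE was obtained from the F statistic and the log2 fold change. Alternatives used limma 3.58.1 voom and DESeq2 1.42.0; plots were drawn in Python 3.11.15 (matplotlib 3.10.9). Intervals are exact at 95% and reflect counting error alone, as PCR copies of a molecule were not marked.

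No replicates were merged: the chi-square per gene was 8.52 to 11.8 between lung3 pairs and 2.24 to 15.6 between MYBup pairs, above sampling noise. Replicate numbers were checked for pairing over 8956 genes: same-numbered lung3 and MYBup deviations correlated at 0.292, 0.164 and 0.202, and unlike numbers between -0.349 and 0.196. By the rule that all same-numbered pairs exceed 0.1 the numbers would pair the libraries, although the labels state no pairing. An unlike pair, lung3 replicate 3 with MYBup replicate 2, reached 0.196, above the 0.164 of the libraries numbered 2. The rule therefore does not show that the libraries are paired. The main fit has no term for the replicate number, and fits with a replicate block are given as alternatives.

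On counts simulated from the real means for lung3 against MYBup, over 11291 genes with 200 changed, recovery was 61.2% at 1.5-fold, 89.6% at 2-fold and 97.0% at 4-fold, and 4.62% of calls were false. All groups had equal means there except for the 200 genes, changed in lung3, and libraries were drawn independently. In the data 48.8% of genes were called and replicate numbers correlated. These rates therefore need not hold for the 5510 calls.

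The groups compared, the 27 gene lists, 6 marker lists, the rule for named genes and the alternatives were chosen with earlier results of these data known. Genes were named by rule: among called genes with a mean log2 CPM of at least 3 and no overlap of the groups, the 12 largest rises and falls and the 6 largest differences each way per kilobase of exon and in the difference of differences; up to 4 called members by list; and Myb and Ccl2. Further list members and the silent genes were named after their values were seen. Some members of the sterol list are counted with it and not reported here singly.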

Additional observations from a re-analysis of the deposited data

How the results depend on the processing

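The count of called genes stayed within 1.5 times of 5510 under all alternatives run, from 4507 without MYBup replicate 3 to 6060 with a replicate block on the 6 libraries; RLE size factors gave 5499, DESeq2 5490, limma voom 5381 and a fit on the 6 libraries alone 5537. With the replicate block on all 12 libraries 5468 genes were called in the main comparison and 2188 in the difference of differences, and the block changed the call of no gene named by the rule. Leaving out 1 library at a time gave between 4507 and 6000 calls, and between 1535 and 2500 in the difference of differences. Leaving out lung3 and mock replicates 3 together, chosen after seeing the data because both were lower in inflammatory genes, gave 4969 calls, 10 rises of 21 chemokine and cytokine genes and 29 of 34 sterol genes. The 1140 genes called at least 2-fold fell to 567 when genes had to reach a mean of 5 CPM. At that minimum the mammary lineage genes called higher numbered 2 (6 without it), and the S100, metallothionein and zinc transporter genes 4 (7 without it). Of the 5510 calls, 3146 held in the same direction in all 22 alternatives, and 17 took the other sign in some alternative. Of the 1140 genes called at least 2-fold, 550 (48.2%) were called the same way in all 22. For the named genes, 64 of 3084 single-gene values lost their call, over 16 genes, and 0 reversed. Depth limits genes of a few counts, such as Thbs2, Tfap2c and Rsad2.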
